A study of Mus musculus with 6 samples.

Results

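Helios and neuropilin 1 are the products of Ikzf2 and Nrp1, a pair of genes used in mice to mark regulatory T cells (Tregs) that arose in the thymus. They were taken by symbol as 2 rows of the 23725 genes in the deposited tables, and both were found once. RNA was measured in Tregs from lymph nodes of C57Bl/6 mice that had been immunised with myelin oligodendrocyte glycoprotein (MOG). In MOG KO mice the Mog gene is missing from the whole animal (3 libraries), and in WT mice it is intact, so that MOG is a self protein there (3 libraries). Each library was made from 500 cells. The sources used here give neither the age of the mice nor the sorting gate, and they do not say whether a library is 1 mouse or a pool. The p-values therefore set a difference between genotypes against the variation among these samples only, and some of that variation may be technical.

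Tregs are CD4 T cells that restrain immune responses and depend on the transcription factor Foxp3. Some acquire that fate in the thymus and others are converted from conventional CD4 T cells in peripheral tissues. Helios, a zinc finger factor of the Ikaros family, helps keep Foxp3-positive cells stable, and neuropilin 1 is a surface receptor that binds class 3 semaphorins, vascular endothelial growth factor and, in mouse Tregs, Sema4a. Both are more abundant on thymic Tregs than on many peripherally induced ones in mice, although activation and inflammation can raise either of them, so neither is an absolute marker of origin. The comparison sets Tregs of immunised mice that lack MOG against those of immunised mice that carry it. Whether the sequenced cells had recognised MOG is not given in the labels.

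Gene counts totalled 3450623 to 4361315 in MOG KO libraries and 2717969 to 4472549 in WT libraries. Of 6 T cell markers in the table, 5 were at 10 RPM or more in every library, and Cd3g was at 1.42 RPM in WT replicate 3 (RPM, the reads of a gene per library after scaling every library to the same total). Summed, they reached 2271 to 2529 RPM in MOG KO libraries, and 2570, 2020 and 1120 RPM in WT replicates 1, 2 and 3. Foxp3 was at 326 to 476 RPM in MOG KO libraries and at 690, 400 and 8.22 RPM in WT replicates 1, 2 and 3. WT replicate 3 therefore stands apart in Foxp3 and in the summed T cell markers, and also had the fewest genes at 10 RPM or more (2701, against 3265 to 4440 in the other libraries). The 8 Treg markers summed to 1619 to 2806 RPM in MOG KO and 1265 to 3060 RPM in WT, and 4 of them were at 10 RPM or more in every library. Ikzf4 was at 0 RPM in 3 of the 6 libraries, and Lrrc32 was under 1 RPM in all but WT replicate 2. Of these, 6 were tested, 3 positive and 3 negative, and 0 passed. Many genes dropped to almost no reads in some libraries, and 704 genes, Ikzf2 and Nrp1 among them, were at 10 RPM or more in all 6.

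Ikzf2 was read at a like level in both genotypes. It had 1033, 1163 and 908.5 RPM in MOG KO replicates 1, 2 and 3, against 1185, 579.5 and 1294 RPM in WT replicates 1, 2 and 3. The MOG KO values lay inside the range of the WT values, which held both the highest and the lowest library. The means were 1035 ± 127 RPM in MOG KO and 1019 ± 385 RPM in WT (SD, n = 3 each), a difference of 15.7 RPM with an exact two-sided permutation p of 1. By counts, 4471, 5073 and 3135 reads were assigned to Ikzf2 in MOG KO libraries and 3220, 2592 and 4564 in WT libraries. The widest counting interval of any of these RPM values, that of WT replicate 1, ran from 1140 to 1230 RPM (95% exact Poisson, counting error only).

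Nrp1 was lower by value in every MOG KO library than in every WT library. It had 570.1, 133.4 and 396.7 RPM in MOG KO replicates 1, 2 and 3, against 817.2, 654.9 and 1146 RPM in WT replicates 1, 2 and 3. The groups did not overlap, with 570.1 RPM as the highest MOG KO value and 654.9 RPM as the lowest WT value, and MOG KO replicate 2 was well under the others. The means were 367 ± 220 RPM in MOG KO and 873 ± 250 RPM in WT (SD, n = 3 each), a ratio of 0.42. The difference of -506 RPM had an exact two-sided permutation p of 0.1, which is the smallest p that 3 samples against 3 allow. Nrp1 had 2467, 582 and 1369 reads in MOG KO libraries and 2221, 2929 and 4044 in WT libraries, and the counting interval of the lowest value, in MOG KO replicate 2, was 123 to 145 RPM. In these bulk samples, fewer cells that carry Nrp1 and less Nrp1 RNA per cell cannot be told apart.

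**Figure D1:**
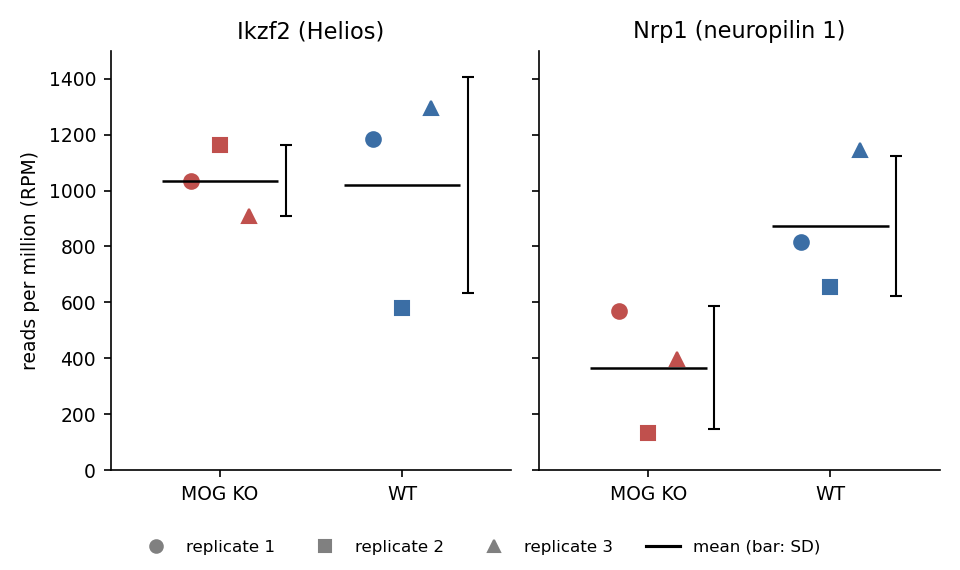
Expression of Ikzf2 (left) and Nrp1 (right) in RPM in each MOG KO and WT library, with marker shape for the replicate, a line for the mean and a bar for the SD (n = 3 each). The Ikzf2 values of the genotypes overlap, while the MOG KO values of Nrp1 (133.4 to 570.1 RPM) all lie under the WT values (654.9 to 1146 RPM).

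In the fit across all genes, neither gene passed the test. The edgeR log2 fold change of Nrp1 was -1.35 with an SE of 0.65 (3 libraries per genotype). Its 95% interval was -2.87 to 0.17, its unadjusted p 0.0737 and its adjusted p 1. As folds, the interval ran from 0.137 to 1.12 times the WT level. That of Ikzf2 was -0.06 ± 0.41, with a 95% interval of -1.01 to 0.88, or 0.497 to 1.84 times the WT level (edgeR unadjusted p = 0.88, adjusted p = 1). The Ikzf2 interval therefore leaves room for about a halving or a near doubling. At an adjusted p of 0.05, edgeR called 0 of the 4088 genes (0%). An unadjusted p under 0.05 was reached by 209 genes (5.11%), of which 118 were lower in MOG KO (2.89% of those tested), and DESeq2 put 210 genes past the adjusted threshold and limma-voom 0, with neither Ikzf2 nor Nrp1 among them.

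The lack of overlap in Nrp1 is read against the rate over all genes. Groups did not overlap in 431 of the 4088 genes tested (10.5%), and MOG KO was the lower group in 187 of them (4.57%). Among the 704 genes at 10 RPM or more in all 6 libraries, 84 did not overlap (11.9%), 23 of them with MOG KO lower (3.27%). Of those 23 genes Nrp1 had the 14th most negative log2 fold change, and by unadjusted p it ranked 24 of the 704 genes and 267 of the 4088. Ikzf2 ranked 527 of the 704. The median log2 fold change over the 704 genes was 0.05, and 323 of them were negative.

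Because both genes were read in the same samples, Nrp1 was also set against Ikzf2 within each library, a measure that does not depend on the library total. Nrp1 had 0.552, 0.115 and 0.437 reads for each Ikzf2 read in MOG KO replicates 1, 2 and 3, against 0.69, 1.13 and 0.886 in WT replicates 1, 2 and 3. Every MOG KO ratio was under every WT ratio. WT replicate 2, the library of lowest Ikzf2, was the only one of the 6 with more Nrp1 reads than Ikzf2 reads. The mean log2 ratio, with 1 added to each count, was -1.73 ± 1.22 in MOG KO and -0.18 ± 0.36 in WT (SD, n = 3 each), a difference of -1.55 (exact two-sided permutation p = 0.1, the smallest possible). Without MOG KO replicate 2 the difference was -0.85, so a large part of its size rests on that library.

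**Figure D2:**
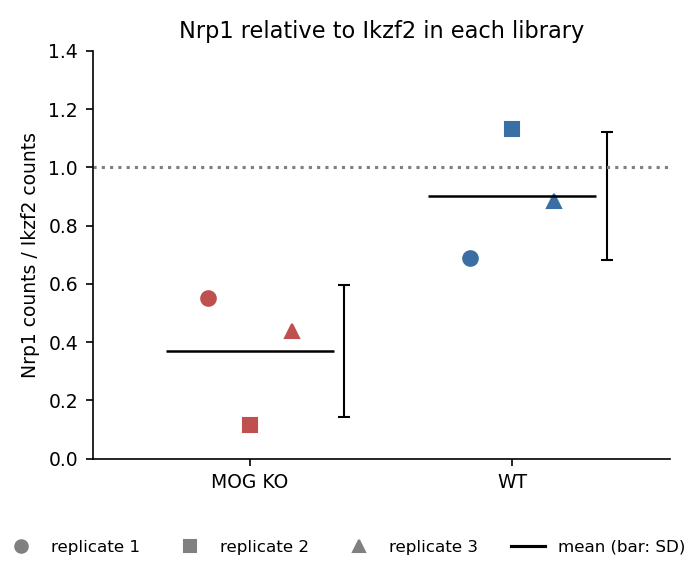
Nrp1 counts divided by Ikzf2 counts in each MOG KO and WT library, with marker shape for the replicate, a line for the mean, a bar for the SD (n = 3 each) and a dotted line at 1. The MOG KO ratios run from 0.115 to 0.552 and the WT ratios from 0.69 to 1.13.

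Levels of different genes were compared per kilobase of exon (RPKM), using merged exon lengths of 11613 bases for Ikzf2 and 9785 bases for Nrp1. On this scale Nrp1 averaged 37.5 ± 22.5 RPKM in MOG KO and 89.2 ± 25.6 RPKM in WT, and Ikzf2 averaged 89.1 ± 11 RPKM in MOG KO and 87.8 ± 33.1 RPKM in WT (SD, n = 3 each). In WT the levels of the 2 genes differed by less than their spread, while in MOG KO the level of Nrp1 was below that of Ikzf2 in each of the 3 libraries. Foxp3, for comparison, averaged 90.8 ± 17.2 RPKM in MOG KO and 80 ± 74.8 RPKM in WT. In WT replicate 3, where Foxp3 was at 8.22 RPM, both Ikzf2 (1294 RPM) and Nrp1 (1146 RPM) had their highest values of all 6 libraries. Without that library the log2 fold change of Nrp1 was -0.99 and that of Ikzf2 was 0.25, with its sign turned.

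The rank of each gene within a library shows the same contrast. Ikzf2 stood at rank 46, 35 and 82 by RPM in MOG KO replicates 1, 2 and 3 and at rank 34, 220 and 51 in WT replicates 1, 2 and 3, among 6527 to 9008 genes with at least 1 count. Nrp1 stood at rank 337, 2214 and 834 in MOG KO libraries and at rank 126, 146 and 79 in WT libraries. Ikzf2 was thus among the 220 most read genes of each library, and Nrp1 among the 146 most read in WT libraries alone.

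The genes also differed in how evenly they were read within a genotype. The coefficient of variation (CV) of Ikzf2 was 12.3% in MOG KO and 37.7% in WT, and that of Nrp1 was 59.9% in MOG KO and 28.7% in WT. Pooled over genotypes, the within-genotype CV was 28.1% for Ikzf2 and 47% for Nrp1, where the median of the 704 genes read in all 6 libraries was 43.6%. A smaller CV than that of Ikzf2 was found for 23.7% of those genes, and a smaller CV than that of Nrp1 for 55%. The highest library exceeded the lowest by 2.23 times for Ikzf2 and by 8.59 times for Nrp1.

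**Figure D3:**
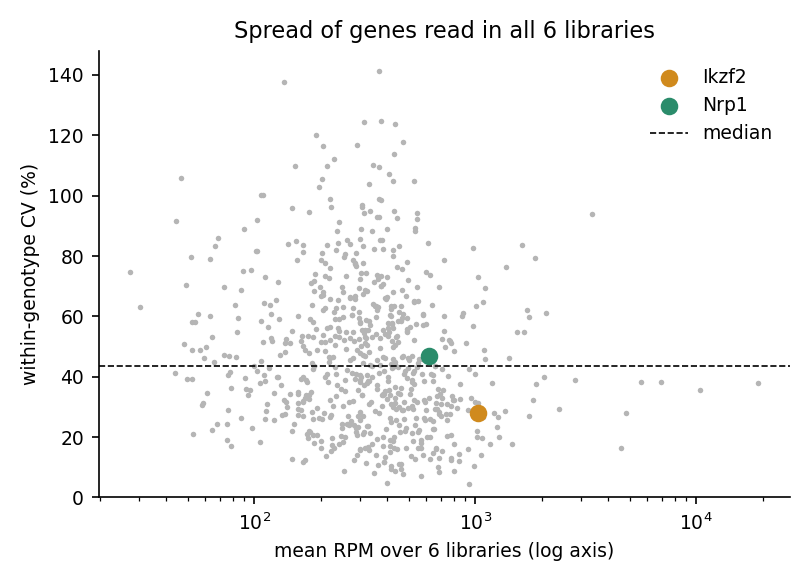
Within-genotype coefficient of variation (%) against mean RPM over 6 libraries (log axis) for the 704 genes at 10 RPM or more in every library, with Ikzf2 and Nrp1 as large points and the median (43.6%) as a dashed line. Ikzf2 (28.1%) lies under the median and Nrp1 (47%) slightly over it.

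Ikzf2 (Entrez 22779) is a protein-coding gene on the minus strand of chromosome 1, from 69531214 to 69687245, and Nrp1 (Entrez 18186) a protein-coding gene on the plus strand of chromosome 8, from 128358604 to 128503363 (GRCm38, GENCODE M21). How well reads of 100 bases tell them from other genes was checked on the annotated transcripts. Of 9681 distinct windows of 100 bases in Nrp1 transcripts, 0 were found in a transcript of another gene, on either strand. Of 12086 windows in Ikzf2 transcripts, 47 (0.389%) were shared, all with Gm29114, an antisense transcript that overlaps 144 bases of Ikzf2 exons. Gm29114 has no row in the count table, and since the strand setting of the counting is not stated, its reads over those bases cannot be told from reads of Ikzf2. Mir1903, whose annotation overlaps 80 bases of Nrp1 exons, had 0 counts. Neither Nrp2 nor the other Ikaros genes shared a full window with the members.

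Of the relatives of Helios, Ikzf1 encodes Ikaros, the founding member of the family. It had 171, 437 and 341 RPM in MOG KO replicates 1, 2 and 3, against 141, 64.6 and 101 RPM in WT replicates 1, 2 and 3. The MOG KO values were all above the WT values, as in 244 of the 4088 genes tested (5.97%). The log2 fold change was 1.58 ± 1.54 and did not pass (edgeR adjusted p = 1). Ikzf3, which encodes Aiolos, had 583, 788 and 716 RPM in MOG KO libraries and 642, 637 and 2.27 RPM in WT libraries. It was near absent from WT replicate 3 and at a like level in the other 5 libraries, with a log2 fold change of 0.72 ± 1.36 that was 0.15 without that library (edgeR adjusted p = 1). Of the 4 relatives, 3 were tested, 0 passed, 2 were positive and 1 negative, with a median of 0.72. Over all genes tested, 2128 were positive and 1960 negative, with a median of 0.06. Ikzf4, which encodes Eos, a partner of Foxp3, was the negative one, with 32.8, 0 and 0 RPM in MOG KO libraries and 546, 104 and 0 RPM in WT libraries. Ikzf5 had 4 counts in all.

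Ikaros family proteins recruit the NuRD, Sin3 and CtBP corepressors, which act on chromatin. Of 17 genes of these complexes, 12 were tested and 0 passed, with 5 positive and 7 negative and a median of -0.28, which was 0.03 without WT replicate 3. Chd4, a chromatin remodeller of NuRD, had 194, 418 and 282 RPM in MOG KO libraries and 363, 232 and 550 RPM in WT libraries. Chd3, its close relative, had 811, 98.8 and 269 RPM in MOG KO libraries and 539, 511 and 51.3 RPM in WT libraries. The ranges of the genotypes overlapped for both of these remodellers. Mbd2, a NuRD protein that binds methylated DNA, had 279, 354 and 134 RPM in MOG KO libraries and 235, 189 and 359 RPM in WT libraries. Ctbp1, a CtBP corepressor, had 282, 376 and 28.4 RPM in MOG KO libraries and 468, 332 and 323 RPM in WT libraries.

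The ligands of neuropilin 1 were nearly unread in these cells. All 12 genes listed, 7 class 3 semaphorins, Sema4a and 4 growth factor genes of the vascular endothelial family, were under 10 RPM in every library, and none had more than 2 counts in all. A count of 0 allows up to 0.688 to 0.869 RPM in MOG KO libraries and up to 0.671 to 1.1 RPM in WT libraries (3 counts). Sema4a had 2 counts and Vegfb 2 counts. None of the 12 was tested, so no difference between genotypes was detectable for the ligands at this depth.

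Neuropilin 1 signals together with plexins and growth factor receptors, and these too were mostly unread. Of 12 genes listed, 10 were under 10 RPM in every library, including Nrp2, the sister receptor (1 count), all A-type plexins, and Flt1, Kdr and Flt4 at 0 counts. Plxnd1, a plexin that can pair with neuropilins, had 0.462, 35.8 and 22.9 RPM in MOG KO libraries and 1.47, 441 and 0.567 RPM in WT libraries, so its level rested on WT replicate 2. Plxnc1, the receptor of Sema7a, had 0.231, 0.229 and 0.58 RPM in MOG KO libraries, against 177, 46.5 and 260 RPM in WT libraries. That is 4 counts over the MOG KO libraries and 1605 over the WT libraries, and the groups did not overlap, as in the 187 genes (4.57%) that were lower in MOG KO in this way. The Plxnc1 difference did not pass in edgeR (unadjusted p = 0.00769, adjusted p = 0.602) but did in DESeq2 (adjusted p = 3.915e-05), one of 210 genes of 3511 so called (5.98%). Across 13 alternatives the adjusted p of Plxnc1 ran from 3.915e-05 to 1. These 2 genes were the only tested members of the list, both negative, and 0 passed.

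In mouse Tregs, signalling through neuropilin 1 restrains the kinase Akt and leaves Foxo factors in the nucleus. Akt1 had 376, 2.29 and 441 RPM in MOG KO replicates 1, 2 and 3, against 394, 202 and 605 RPM in WT replicates 1, 2 and 3. Foxo1 had 634, 3.67 and 804 RPM in MOG KO libraries and 573, 593 and 166 RPM in WT libraries. Both genes were near absent from MOG KO replicate 2, a kind of drop that many genes showed in some libraries. The genotypes overlapped for both, and neither passed (edgeR adjusted p = 1). Gipc1, the adaptor that binds the cytoplasmic tail of neuropilin 1, had 5 counts in all. Of the 7 genes of this signalling list, 4 were tested, 2 were positive and 2 negative, and 0 passed, with a median of -0.21 that was 0.08 without MOG KO replicate 2.

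**Figure D4:**
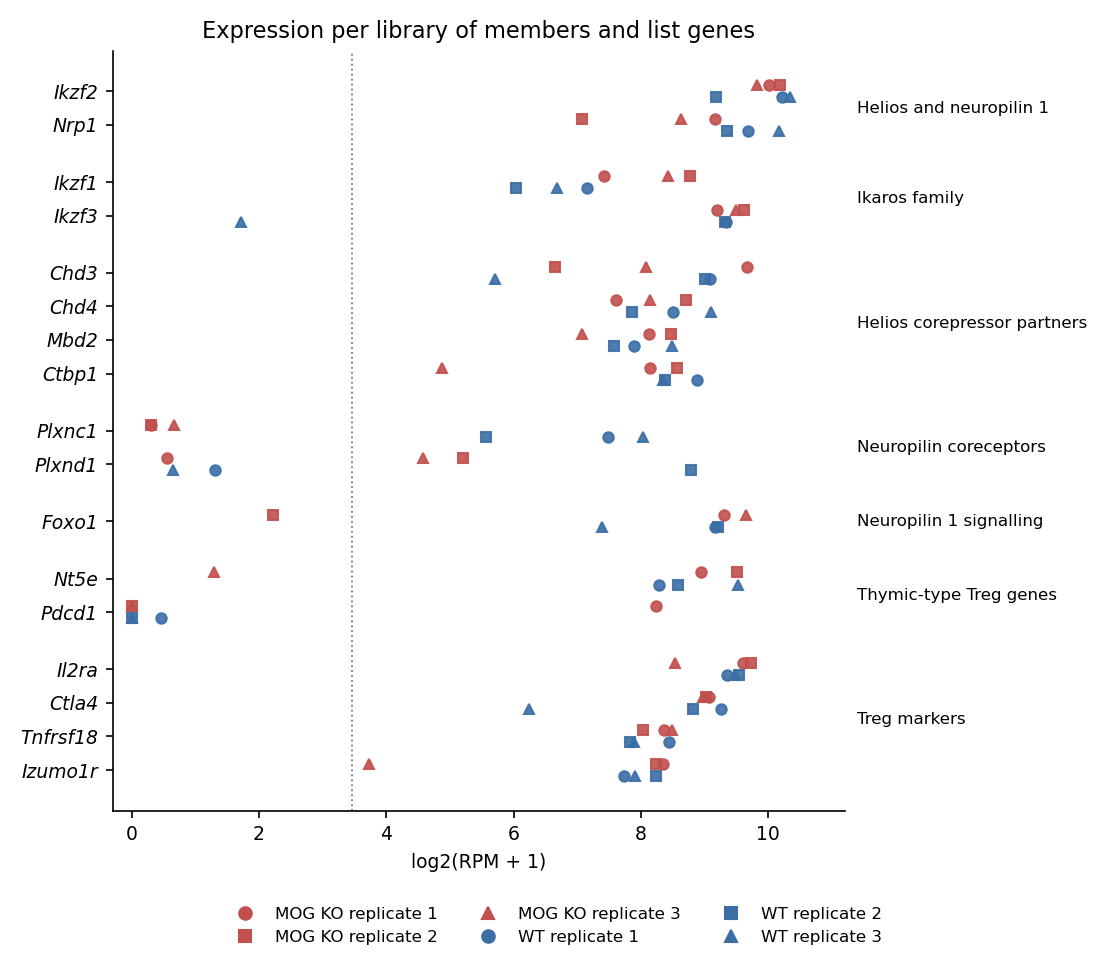
Expression, as log2(RPM + 1), of Ikzf2, Nrp1 and genes of the lists in the MOG KO and WT libraries (marker shape for the replicate), with a dotted line at 10 RPM. Values of Ikzf1 are higher, and those of Nrp1 and Plxnc1 lower, in all MOG KO libraries than in all WT libraries; most other genes overlap or are near 0 in some libraries.

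Other genes that have been proposed to separate thymic from peripheral Tregs gave no uniform picture. Nt5e, which encodes the ectoenzyme CD73, had 493, 726 and 1.45 RPM in MOG KO libraries and 311, 381 and 734 RPM in WT libraries. Swap70, tested and negative like Nt5e, had 29.6, 0 and 0 RPM in MOG KO libraries and 22.4, 25.5 and 188 RPM in WT libraries. Pdcd1, the gene of the inhibitory receptor PD-1, was at 299 RPM in MOG KO replicate 1 and at 0 to 0.368 RPM elsewhere. On the peripheral side, Dapl1 and Igfbp4 had 7 counts each. Of the 3 thymic-type genes 2 were tested and 0 passed, and none of the 3 peripheral-type genes was tested.

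Taken over the 7 lists, 58 genes were examined, 23 were tested in edgeR and 0 passed. Of the 23, 2, Plxnc1 among them, had an unadjusted p under 0.05, against 5.11% of all 4088 genes tested. The genotypes did not overlap in 3 of the 23, among them Ikzf1 (higher in MOG KO) and Plxnc1 (lower in MOG KO). Over all genes tested the share without overlap was 10.5%, so no result about the lists is read from these small counts.

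Neuropilin 1 is also made by plasmacytoid dendritic cells and by endothelium, whose markers were therefore read beside it. The defining genes Siglech and Spib of plasmacytoid dendritic cells had 0 counts in all libraries, and the summed level of 6 such markers was 0 to 0.917 RPM in MOG KO and 0.368 to 27.5 RPM in WT, the highest from Pacsin1 in WT replicate 2. Of 8 endothelial markers, Kdr, Tek, Vwf, Lyve1 and Prox1 had 0 counts and Cdh5 had 3. Their summed level, 25.2 to 461 RPM in MOG KO and 1.98 to 89.8 RPM in WT, was nearly all Pecam1, which T cells can also express, and was highest in MOG KO replicate 1. Of 6 stromal markers, all were under 10 RPM in every library, with summed levels of 0 to 6.19 RPM in MOG KO and 0 to 6.26 RPM in WT. Of 8 dendritic and myeloid markers, 7 were under 10 RPM in every library, with summed levels of 16.8 to 124 RPM in MOG KO and 25.8 to 178 RPM in WT that were mostly Cst3. The 6 B cell markers summed to 0 to 130 RPM in MOG KO and 2.58 to 207 RPM in WT, with Cd79a and Pax5 at 0 counts. Those sums were mostly Cd79b, at 130 RPM in MOG KO replicate 2 and 205 RPM in WT replicate 2, and Ms4a1, at 87.3 RPM in WT replicate 3. The 5 CD8 T and NK cell markers summed to at most 0.368 RPM in any library.

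Conventional CD4 T cells, which lack Foxp3, are another population that a sort could hold. Their 6 markers summed to 872 to 1882 RPM in MOG KO and 1786 to 2152 RPM in WT, and Cd40lg had 0 counts. Il7r, the receptor chain for interleukin 7, had 724, 61 and 8.11 RPM in MOG KO libraries and 1030, 733 and 7.94 RPM in WT libraries. Of the 6 markers, 4 were tested, 1 was positive, 3 were negative and 0 passed. Tcf7, a transcription factor of naive and memory T cells, was at 0.693 to 1.74 RPM in MOG KO and 93.8 to 333 RPM in WT. Ccr7 had 1.85, 2.29 and 2.32 RPM in MOG KO libraries and 7.36, 2.68 and 243 RPM in WT libraries, so its WT level rested on replicate 3. Tcf7 and Ccr7 were lower in all MOG KO libraries, as Nrp1 was and as were 187 of the 4088 genes tested (4.57%). For Ccr7 the groups were narrowly apart, at 2.32 against 2.68 RPM and at few reads. The part of Tcf7 and Ccr7 in the Nrp1 difference was not tested. The 4 red cell genes in the table, 3 of them tested, all negative and 0 past the threshold, summed to 20.6 to 67.5 RPM in MOG KO and 69.7 to 151 RPM in WT, and globin copies are so alike that their reads can be split between them. Their part was likewise not tested.

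Genes most like each member over the 6 libraries were sought among the 703 other genes read at 10 RPM or more in every library, by Pearson's r of log2(RPM + 1). The points share library, depth and amplification, so the values of r are descriptions. For Ikzf2 the nearest were Rhoa (r = 0.981), a small GTPase of the actin cytoskeleton, its kinase Rock1 (0.968), Nucb1 (0.944), Pacs1 (0.931) and Actr3 (0.929), a subunit of the actin-nucleating Arp2/3 complex. All 5 had their lowest value in WT replicate 2, as Rhoa did with 552, 658 and 376 RPM in MOG KO libraries and 525, 164 and 707 RPM in WT libraries. For Nrp1 the nearest were Tmbim6 (r = 0.968), an inhibitor of cell death in the endoplasmic reticulum, Foxn3 (0.945), Fam107b (0.937), Sf3b1 (0.924), a splicing factor subunit, and Atp2b1 (0.903), a calcium pump of the plasma membrane. All 5 were lowest in MOG KO replicate 2, as Tmbim6 was with 235, 32.8 and 207 RPM in MOG KO libraries and 254, 263 and 463 RPM in WT libraries. An r over 0.9 was found for 9 genes with Ikzf2 and for 6 with Nrp1. Between Ikzf2 and Nrp1 themselves r was -0.02, so the levels of the members showed no common pattern over these 6 libraries.

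**Figure D5:**
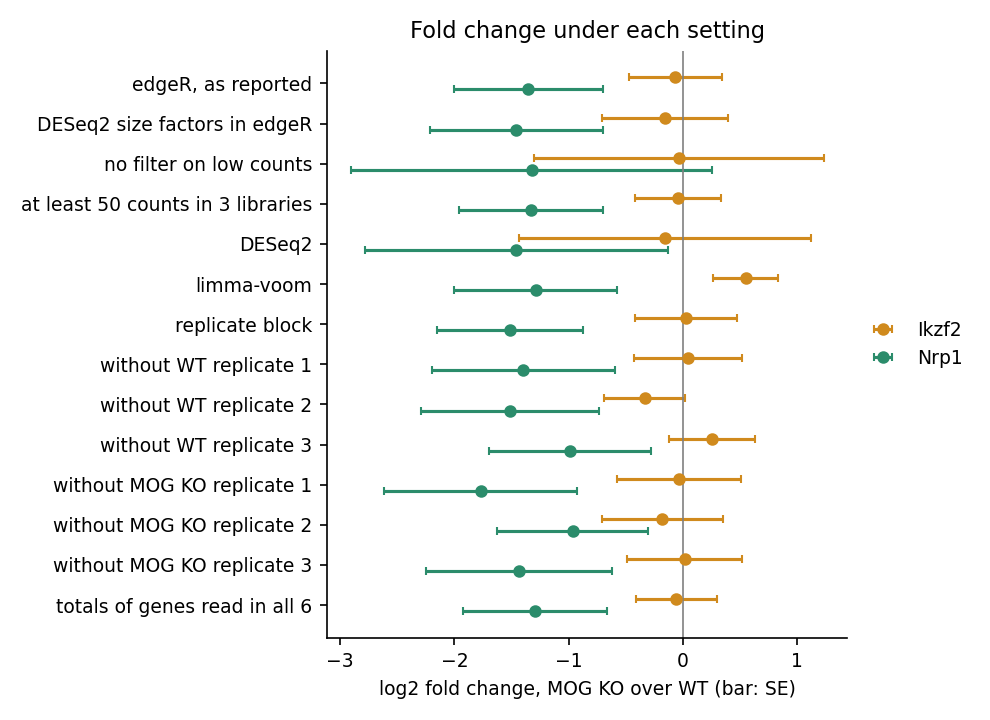
Log2 fold change, MOG KO over WT, of Ikzf2 and Nrp1 under each setting of the fit, with bars for the SE (n = 3 per group, or 3 and 2 where a replicate is left out). Nrp1 is negative under every setting drawn (-1.77 to -0.96), while Ikzf2 lies on both sides of 0 (-0.33 to 0.55).

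The Nrp1 difference kept its direction under every setting that was run. Over 13 alternatives the log2 fold change of Nrp1 was -1.77 to -0.96, with adjusted p values of 0.616 to 1 and unadjusted p values of 0.0549 to 0.403, and leaving out any 1 library gave -1.77 to -0.96 as well. The value nearest 0 was that without MOG KO replicate 2, and the next that without WT replicate 3. The log2 fold change of Ikzf2 was -0.33 to 0.55 and took both signs.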

How the data were processed

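RNA was measured in 3 MOG KO and 3 WT libraries. Per the labels' protocols, RNA of 500 cells was copied and amplified by 15 PCR cycles (SMARTer), made into NexteraXT libraries and sequenced from 1 end over 100 bases, and no molecular identifiers are named. The authors deposited whole-number counts of exon reads per gene and RPM values, which equalled the counts rescaled by each column total (differences under 1e-06). STAR 2.3.1, R 3.2.2 and mm10 are named per the submitters' processing notes. The sources used here give neither the counting function nor the strand setting.

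Counts were tested with edgeR 4.0.16 (quasi-likelihood, TMM, filterByExpr, robust, genotype only) in R 4.3.3 over 4088 genes, with Benjamini-Hochberg adjustment, and checked with DESeq2 1.42.0 and limma 3.58.1. The fitting steps were run on simulated data, with a pass condition set only for counts of low spread. That run therefore does not show how they perform at the spread of these libraries. SE is the absolute log2 fold change over the square root of F. Single values were tested by exact permutation (scipy 1.17.1).

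Members and gene lists were chosen with earlier results of these data known. Of each list other than markers, named genes are those at 10 RPM or more in all 6 libraries, or the 2 of highest mean where fewer than 2 qualify; Swap70, Ikzf4, Ikzf5, single markers, Akt1, Gipc1, Dapl1 and Nrp2 were named after their values were seen. Some genes that the rule selects are not reported here. Intervals and floors cover counting error only.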

Additional observations from a re-analysis of the deposited data

How the results depend on the processing

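The log2 fold change of Nrp1 kept its sign and stayed short of the threshold under all 13 alternatives, and so did its RPM difference (8 alternatives, -660 to -369) and its ratio to Ikzf2 (9 alternatives, -1.98 to -0.85). That of Ikzf2 changed sign in limma-voom (0.55), with the replicate block (0.030) and on leaving out single libraries (-0.33 to 0.25), and its RPM difference changed sign with TMM effective library sizes (-54.4) and on leaving out single libraries (-204 to 153). The cause was not tested. DESeq2 put 210 genes past the threshold where edgeR put 0, and the other 12 alternatives gave 0. Library totals taken over genes read in all 6 libraries, an alternative chosen after seeing the data, gave -1.29 for Nrp1 and -0.05 for Ikzf2. Same-numbered libraries did not visibly deviate together (r of -0.0222, -0.00215 and -0.0176 over 4088 genes). Many of these genes drop to almost no reads in some libraries, so these r values cannot exclude a shared batch. The labels do not say whether same-numbered libraries were paired. With the replicate block Nrp1 was -1.51 (edgeR adjusted p = 1), and no gene passed. Among list genes, those named and refitted (Ikzf1, Ikzf3 and Plxnc1) kept their sign, the median of the Treg markers lay on both sides of 0 (-0.12 to 0.37), and that of the signalling list was -2.12 in limma-voom. The median over all genes tested, 0.06, was -0.18 with no filter on low counts and 0.15 without WT replicate 3. With 3 libraries per genotype an exact permutation p cannot go below 0.1, nor a sign-flip test of 3 pairs below 0.25, and the edgeR interval of Ikzf2 spans 0.497 to 1.84 times the WT level.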
